A study of Homo sapiens with 6 samples.

Results

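The genes considered here are 48 human genes of DNA repair and of the DNA damage checkpoint, chosen by name with earlier results of these data known. A gene was counted as occupied when a ChIP-seq peak lay inside its RefSeq gene body or within 3 kb of it. All 48 symbols were found among the 20033 protein-coding genes of the RefSeq table (GRCh38.p14). Chromatin came from 2 clones (#4 and #5) of K562, a human chronic myelogenous leukemia cell line, and every clone co-overexpressed USF2 and FLAG-tagged PLAG1-S, the short PLAG1 isoform. From each clone an anti-FLAG library (PLAG1-S) and an anti-USF2 library were sequenced, with an input library, so that each factor had 2 libraries. The labels give 42.5 M reads of 50 bp per immunoprecipitation and 55 M per input. All libraries carried both transgenes, so occupancy without overexpression was not measured, and the anti-USF2 antibody does not separate the transgene from the endogenous protein. The anti-FLAG antibody reads only the tagged short isoform.

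Cells answer broken or stalled DNA through a checkpoint, in which the RAD9A-HUS1-RAD1 clamp is loaded by RAD17 and turns on the kinase ATR, while ATM answers strand breaks. CHEK1 and CHEK2 carry these signals to the cell cycle. Homologous recombination (BRCA1, BRCA2, PALB2 and their partners) copies a lost sequence from the sister chromatid, and the Fanconi anemia proteins undo crosslinks between the strands. Mismatch repair corrects replication errors, nucleotide excision repair cuts out bulky lesions, and base excision repair removes single damaged bases. USF2 is a basic helix-loop-helix leucine zipper factor that recognizes the E-box CACGTG, and PLAG1 is a zinc finger factor that recognizes a bipartite G-rich motif.

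The promoters of RAD9A, APEX1 and BRCA2 are shown because they carry E-boxes beside which co-bound summits lay, and that of MSH6 because it carried a PLAG1-S peak and no USF2 peak in either clone. Each sequence is the 250 bases before the RefSeq gene start (GRCh38.p14), read along the strand of the gene, with each CACGTG in capitals. The MSH6 window holds no CACGTG.
RAD9A (chr11:67391736-67391985, plus strand): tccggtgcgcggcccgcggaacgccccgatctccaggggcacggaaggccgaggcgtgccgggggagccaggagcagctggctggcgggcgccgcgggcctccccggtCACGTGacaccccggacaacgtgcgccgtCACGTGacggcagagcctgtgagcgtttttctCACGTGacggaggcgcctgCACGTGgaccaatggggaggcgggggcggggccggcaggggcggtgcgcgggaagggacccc
APEX1 (chr14:20454976-20455225, plus strand): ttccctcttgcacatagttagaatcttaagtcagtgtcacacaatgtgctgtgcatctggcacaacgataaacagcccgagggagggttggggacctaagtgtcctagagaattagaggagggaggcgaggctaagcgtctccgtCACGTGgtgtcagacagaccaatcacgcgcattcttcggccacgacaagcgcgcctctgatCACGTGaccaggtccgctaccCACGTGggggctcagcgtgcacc
BRCA2 (chr13:32315258-32315507, plus strand): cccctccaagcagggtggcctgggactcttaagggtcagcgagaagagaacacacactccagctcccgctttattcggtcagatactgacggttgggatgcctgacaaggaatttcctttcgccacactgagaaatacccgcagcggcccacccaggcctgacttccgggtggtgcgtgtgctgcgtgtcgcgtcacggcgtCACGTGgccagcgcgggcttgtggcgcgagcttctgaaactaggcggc
MSH6 (chr2:47782895-47783144, plus strand): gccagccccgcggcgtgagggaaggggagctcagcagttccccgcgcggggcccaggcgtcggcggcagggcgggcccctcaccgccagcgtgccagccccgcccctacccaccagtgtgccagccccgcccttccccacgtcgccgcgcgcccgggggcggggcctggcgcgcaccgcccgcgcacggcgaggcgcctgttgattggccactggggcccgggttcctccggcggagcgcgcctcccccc

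Peaks were called by the authors with MACS2, separately for each immunoprecipitation, and all 4 lists share the same merged inputs as control. The PLAG1-S lists held 37574 (clone 4) and 29889 (clone 5) peaks, of which 77 and 66 fell at the 48 genes, and the USF2 lists held 9338 and 4369, of which 23 and 12 did. Peaks of one factor that met by at least 1 bp in both clones were called reproducible, with the coordinates of clone 4. A site was called co-bound when a reproducible PLAG1-S peak lay within 100 bp of a reproducible USF2 peak. Fold enrichment is the authors' ratio of fragments over the summit to the local background. It is compared here within a list, since the immunoprecipitations were not scaled to each other. Peak lists of 2 clones per factor were counted without a test of single genes, and the intervals on fragments given below are exact 95% Poisson intervals that cover counting error only. The 2 clones carry the same transgenes, and nothing in the labels gives more than 1 culture per clone.

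PLAG1-S occupied most of these genes. A reproducible PLAG1-S peak was found at 31 of the 48 genes (64.6%), against 52.0% of all protein-coding genes. Of the other 17, 5 had PLAG1-S peaks in clone 4 only, 3 in clone 5 only, 2 in both clones without overlap, and 7 had none in either list. These 7 were the checkpoint activator TOPBP1, the Fanconi genes FANCF and FANCL, the nucleotide excision genes XPC and ERCC5, and the base excision genes XRCC1 and POLB. Among all protein-coding genes 32.2% had no PLAG1-S peak in either clone.

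USF2 was found at fewer genes. A reproducible USF2 peak was present at 9 genes, where 10.3% of all protein-coding genes had one, and at each of the 9 it was co-bound with PLAG1-S. Co-binding was as common elsewhere, since 2072 protein-coding genes had a reproducible USF2 peak and 1999 a co-bound peak. The 9 co-bound genes (18.8%, against 9.98% of all protein-coding genes) were RAD9A, RAD17, BRCA2, RAD51D, PMS2, OGG1, UNG, APEX1 and LIG3. A further 7 genes had USF2 peaks in clone 4 only and 2 in clone 5 only, and 30 had none in either list. Of the 31 genes with a reproducible PLAG1-S peak 9 were thus co-bound, against 19.2% of all protein-coding genes with such a peak. The number of co-bound genes depended on the clone. With the clone 4 lists alone it was 15, against 20.5% of all protein-coding genes, and with the clone 5 lists alone it was 10, against 11.3%. With peaks of a −log10 q of at least 10 in every list, RAD9A, RAD17, BRCA2, RAD51D, PMS2 and APEX1 kept their co-bound peaks. At that threshold 5.75% of all protein-coding genes had one.

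**Figure D1:**
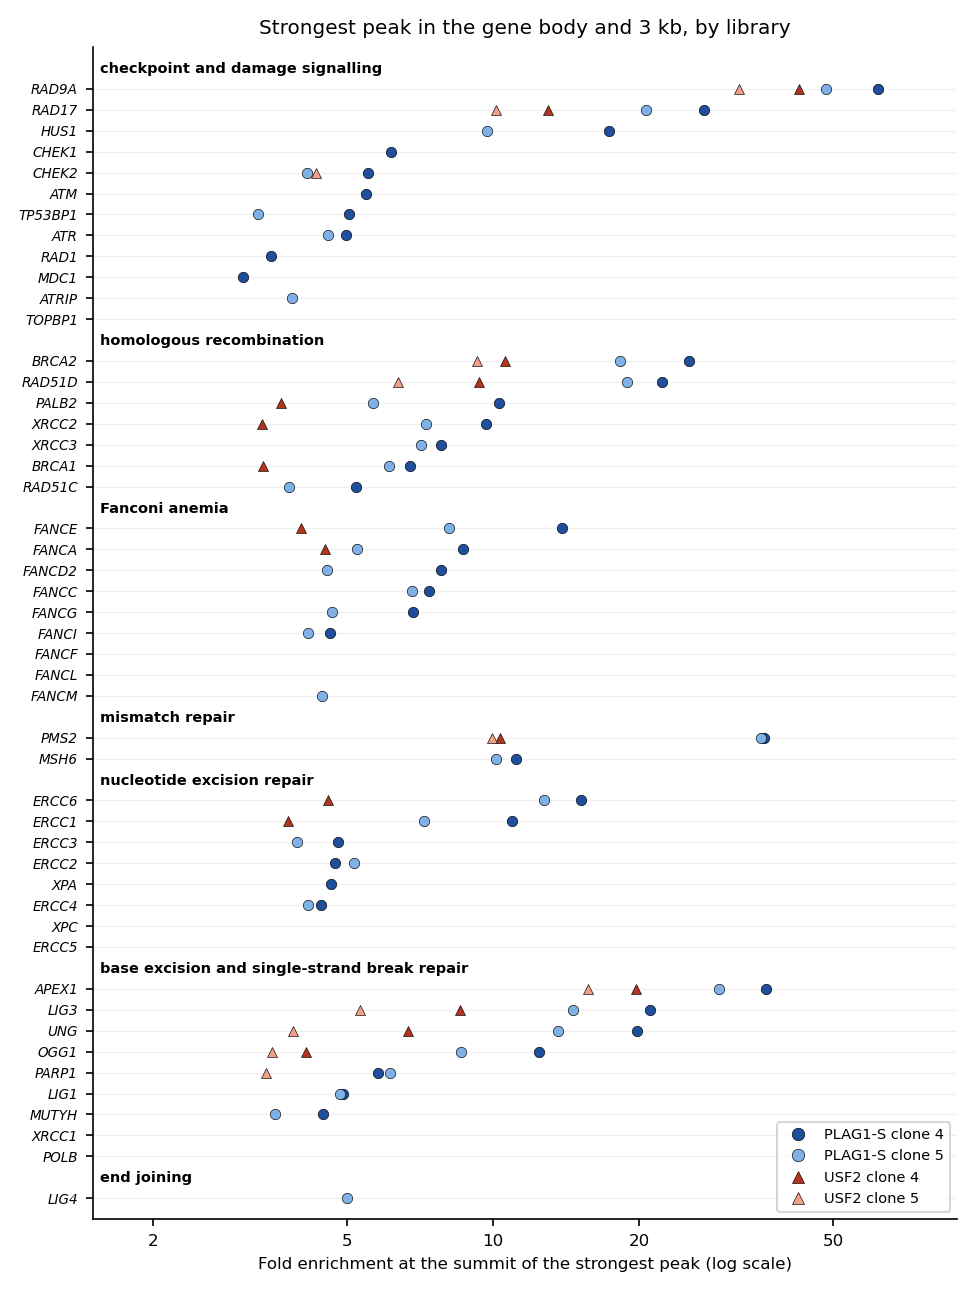
The fold enrichment (log axis) of the strongest peak in the gene body and 3 kb around it is plotted for each of the 48 genes and each library, with circles for PLAG1-S, triangles for USF2, dark symbols for clone 4 and light ones for clone 5. Symbols are absent where a list held no peak. RAD9A lies to the right of all other genes in all 4 libraries, with PLAG1-S at 61.8 and 48.4 and USF2 at 42.6 and 32.0.

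Gene length changes the chance that a window holds a peak, so the counts were also read by length. The median length of the 48 genes was 37500.5 bp, against 24130 bp for all protein-coding genes. Of the 18 genes of 30 to 60 kb, 13 had a reproducible PLAG1-S peak (59.2% of all genes of that length) and 4 a co-bound peak (12.4%). Of the 13 genes of 60 kb or more, 8 had a PLAG1-S peak (56.2%) and 1 a co-bound peak (9.65%). Of the 13 genes of 10 to 30 kb, 7 had a PLAG1-S peak (54.7%) and 2 a co-bound peak (10.1%), and of the 4 shorter genes, 3 (41.1%) and 2 (8.68%).

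Peaks at the gene start were counted separately. RefSeq promoter sequences gave the start of 45 of the 48 genes, and for HUS1, FANCI and POLB either gene end was taken. A reproducible PLAG1-S summit lay within 1 kb of the start of 26 genes, against 38.1% of all protein-coding genes. A reproducible USF2 summit lay there at 8 genes, against 6.88%, and the same 8 starts were co-bound, against 6.71%. Among the 45 genes with a known start, 24 had the PLAG1-S summit (39.1% of genes with a known start). OGG1 was the co-bound gene without a peak at its start. Of the 55 reproducible PLAG1-S peaks at the 48 genes, 29 lay within 1 kb of the gene's own known start, and for 34 the nearest coding gene start was that of the repair gene itself.

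In the checkpoint group RAD9A, RAD17 and HUS1 were the most strongly occupied genes. RAD9A, a subunit of the checkpoint clamp, had the strongest peaks of all 48 genes. Its PLAG1-S peak, on chromosome 11 from 67391292 to 67392310, was enriched 61.8-fold in clone 4 and 48.4-fold in clone 5, which ranked it 2 and 11 in these lists. Its USF2 fold enrichments were 42.6 in clone 4 and 32.0 in clone 5, ranks 6 and 11. The summits held 261 fragments (230 to 295) and 205 (178 to 235) for PLAG1-S and 180 (155 to 208) and 139 (117 to 164) for USF2. In each of the 4 lists these intervals lay above those of the other 8 co-bound genes.

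RAD17 encodes the loader of the clamp, and its peak was co-bound on chromosome 5 from 69369207 to 69369849. The PLAG1-S fold enrichments were 27.1 and 20.6 in clones 4 and 5, and those of USF2 were 13.0 and 10.1. In clone 4 the summits of both factors lay 288 bp before the RAD17 start and 294 bp from the starts of AK6 and TAF9, so that the peak cannot be assigned to RAD17 alone. HUS1, another clamp subunit, had PLAG1-S without USF2, with fold enrichments of 17.3 and 9.72 and a summit 145 bp from a gene end. RAD1, the remaining subunit, had PLAG1-S peaks in clone 4 only, with a largest fold enrichment of 3.50.

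Of the kinase genes only CHEK2 had a reproducible PLAG1-S peak. The clone 4 folds of all of them lay around the median of that list, 5.21. The CHEK2 peak had folds of 5.53 and 4.15 in clones 4 and 5. Its clone 4 summit was nearer to the start of HSCB (256 bp) than to that of CHEK2 (475 bp). CHEK2 had USF2 peaks in clone 5 only, at up to 4.32, which lay elsewhere, 49037 and 50692 bp from its start. ATM and CHEK1 had a PLAG1-S peak in clone 4 only, at 5.47 and 6.17. ATR had peaks in both clones, at 4.97 and 4.58, that did not overlap, and its partner ATRIP had a peak in clone 5 only, at 3.85. Of the mediators of the break response, TP53BP1 had a reproducible PLAG1-S peak at 5.06 and 3.28, 6 bp from the start of MAP1A, and MDC1 had a peak in clone 4 only. The checkpoint group thus had 5 of 12 genes with a reproducible PLAG1-S peak, and 10 of 12 with any clone 4 peak, where 64.0% of all protein-coding genes had one.

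All 7 homologous recombination genes had a reproducible PLAG1-S peak, and 2 were co-bound. At BRCA2, a mediator of strand exchange, the peak ran from 32315257 to 32315760 on chromosome 13. PLAG1-S was enriched 25.3-fold in clone 4 and 18.2-fold in clone 5, and USF2 10.6-fold and 9.28-fold. The clone 4 PLAG1-S summit lay 39 bp before the BRCA2 start and 106 bp from the start of ZAR1L, which is transcribed the other way. At RAD51D, which acts in the same pathway, PLAG1-S was enriched 22.3-fold and 18.9-fold and USF2 9.37-fold and 6.37-fold, with the clone 4 PLAG1-S summit 90 bp inside the gene.

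The 5 other genes of homologous recombination had a reproducible PLAG1-S peak without a reproducible USF2 peak. PALB2, the link between BRCA1 and BRCA2, had fold enrichments of 10.3 and 5.65, and XRCC2 had 9.65 and 7.28. Both also had a USF2 peak in clone 4, at 3.66 and 3.34, that was missing from the clone 5 list. XRCC3 had 7.82 and 7.11 and RAD51C had 5.21 and 3.80, with no USF2 peak in either clone. The start of BRCA1 in the RefSeq table, that of the longest gene interval, is not the commonly used one. The BRCA1 peaks lay 45014 and 43530 bp from that start. The one that was stronger in clone 4, at 6.74 and 6.12, lay 244 bp from an end of NBR2. The other had 4.45 and 6.12. NBR2 is a noncoding gene known to lie head to head with the common BRCA1 start, so that BRCA1 cannot be read as free of PLAG1-S at its promoter. BRCA1 also had a USF2 peak in clone 4 only, at 3.36, which did not meet the definition of co-binding in the clone 4 lists.

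The Fanconi anemia genes held no reproducible USF2 peak. A reproducible PLAG1-S peak was present at 6 of the 9, for 5 of them within 1 kb of a gene start or end, and the strongest peaks were weaker than at the co-bound genes of homologous recombination. FANCC, of the core complex that adds ubiquitin to FANCD2 and FANCI, had fold enrichments of 7.37 and 6.80 with a clone 4 summit 16 bp inside the gene. FANCD2 had its strongest peak, at 7.82 and 4.56, 51659 bp inside the gene, and a weaker one at its start, at 2.90 and 4.48. FANCI had 4.62 and 4.15.

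Several of the Fanconi peaks lay nearer to other genes. The strongest FANCE peak, at 13.9 and 8.12, had its summit 17514 bp from the FANCE start and 1451 bp from that of the ribosomal protein gene RPL10A, while the peak at the FANCE start reached 4.56 and 3.59. The FANCG peak, at 6.85 and 4.66, lay 573 bp from the start of VCP and 7890 bp from that of FANCG. By contrast, the strongest FANCA peak, at 8.68 and 5.25, lay 2694 bp before the FANCA start, which was the nearest coding start. A weaker reproducible peak, at 5.15 and 4.83, had its clone 4 summit 163 bp inside FANCA. FANCA and FANCE had USF2 peaks in clone 4 only, FANCM had a PLAG1-S peak in clone 5 only, and FANCF and FANCL had no peak of either factor. The group held 2 co-bound genes with the clone 4 lists alone and 0 with those of clone 5, or 1 when the clones were averaged. At FANCE the clone 4 USF2 summits lay 125 and 946 bp from the RPL10A start, and 16188 and 17009 bp from the FANCE start. At FANCA the USF2 summit beside PLAG1-S lay 159 bp inside the gene.

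Both mismatch repair genes carried PLAG1-S at the start, and they differed in USF2. PMS2, a subunit of the complex that nicks the new strand, had a co-bound peak on chromosome 7 from 6008691 to 6009803. Its PLAG1-S fold enrichments were 36.1 and 35.6, and those of USF2 were 10.4 and 9.94. The clone 4 PLAG1-S summit lay 390 bp before the PMS2 start and 224 bp from that of AIMP2, which was nearer. MSH6, a subunit of the mismatch sensor, had PLAG1-S fold enrichments of 11.1 and 10.1, with the clone 4 summit 198 bp before its start and inside the sequence shown above, and no USF2 peak in either clone.

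The nucleotide excision genes had mostly weak PLAG1-S peaks and no reproducible USF2 peak. The exceptions in strength were ERCC1 and ERCC6. ERCC6, which couples this repair to transcription, had PLAG1-S at 15.1 and 12.7 within 41 bp of its start in both clones and USF2 in clone 4 at 4.58. The TFIIH helicase genes ERCC2 and ERCC3 had 4.74 and 5.18, and 4.80 and 3.95. ERCC1 and ERCC4 form the nuclease that cuts on one side of the lesion. ERCC4 had a reproducible peak of 3.86 and 4.16, 249 bp inside the gene. ERCC1 had 7 reproducible PLAG1-S peaks, of which the strongest in clone 4 lay 7068 bp inside the gene, at 11.0 and 6.60, and none lay within 1 kb of its start. In clone 5 the strongest ERCC1 peak, at 7.21, was another one, 530 bp from the start of PPP1R13L. XPA, which checks the lesion, had peaks in clone 4 only. As for the Fanconi genes, 2 genes of this group (ERCC1 and ERCC6) were co-bound with the clone 4 lists alone and 0 with those of clone 5, or 1 on average. The ERCC1 site lay at a neighbour, with its USF2 summit 471 bp from the start of PPP1R13L and 45657 bp from that of ERCC1.

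Base excision and single-strand break repair held 4 of the 9 co-bound genes, of which APEX1 alone remained with a −log10 q of at least 10. APEX1, the endonuclease that cuts at sites without a base, had PLAG1-S at 36.5 and 29.2 and USF2 at 19.6 and 15.7 on chromosome 14 from 20454815 to 20455524. Its PLAG1-S summits held 153 (130 to 179) and 104 (85.0 to 126) fragments, and its USF2 summits 75 (59.0 to 94.0) and 58 (44.0 to 75.0). After RAD9A these were the strongest USF2 peaks of the 48 genes, while the PLAG1-S intervals overlapped those of PMS2 in clone 4, with 152 (129 to 178), and in clone 5, with 142 (120 to 167).

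LIG3, a ligase of single-strand breaks, had PLAG1-S at 21.0 and 14.6 and USF2 at 8.55 and 5.33, on chromosome 17 from 34980234 to 34981296. UNG, which removes uracil from DNA, had PLAG1-S at 19.8 and 13.6 and USF2 at 6.69 and 3.88. Its 4 summits were spread from 341 to 537 bp inside the gene, the widest spread among the co-bound starts. OGG1, the glycosylase for oxidized guanine, had the weakest co-bound peak, with PLAG1-S at 10.5 and 7.89 and USF2 at 3.81 and 3.51. That peak lay 20705 bp from the OGG1 start and 710 bp from the start of CAMK1, and a stronger PLAG1-S peak in the same gene, at 12.4 and 8.61, was not co-bound.

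The remaining genes of this group had weaker or no peaks. PARP1, which senses nicks, had PLAG1-S at 5.79 and 6.14 and USF2 in clone 5 only at 3.41, and LIG1 had PLAG1-S at 4.91 and 4.84. MUTYH had PLAG1-S peaks in both clones, at up to 4.46 and 3.55, that did not overlap. LIG4, the ligase of end joining, had a PLAG1-S peak in clone 5 only, at 5.00. The groups hold 1 to 12 genes, and differences between them were not tested.

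Read across the groups, 8 of the 9 co-bound genes had stronger PLAG1-S peaks than any gene without co-binding, and OGG1 was the exception. For each gene with a reproducible PLAG1-S peak, the strongest co-bound peak or, without one, the strongest reproducible peak was taken. The median clone 4 fold of these peaks was 17.3 in the checkpoint group, 9.65 in homologous recombination, 7.60 in the Fanconi group, 23.6 in mismatch repair, 4.80 in nucleotide excision and 15.2 in base excision. In clone 5 the medians were 9.72, 7.11, 4.96, 22.9, 5.18 and 10.7, in the same order. The median over the 9 co-bound genes was 25.3 in clone 4 and 18.9 in clone 5, against 7.11 and 5.45 over the 22 genes without co-binding. Over the whole lists co-bound PLAG1-S peaks were stronger as well, with median clone 4 folds of 18.9 for 2108 co-bound peaks and 6.06 for 19361 others.

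The ratio of the PLAG1-S fold to the USF2 fold differed among the 9 co-bound genes and kept both its lowest and its highest gene from clone to clone. It was lowest at RAD9A, at 1.45 in clone 4 and 1.51 in clone 5, followed by APEX1 at 1.86 in both. It was highest at PMS2, at 3.48 and 3.58. In clone 5 UNG was close to PMS2, at 3.51, with 20 fragments (12.2 to 30.9) at its USF2 summit. The ratios carry no intervals. The other 6 genes lay between 1.96 and 3.51, and because folds were not scaled between the antibodies the ratio ranks genes and does not measure relative amounts of the factors.

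The summits of both factors nearly coincided at most co-bound starts. At RAD9A the 4 summits lay between 94 and 110 bp before the gene start, at APEX1 between 54 and 69 bp, at LIG3 between 59 and 71 bp and at BRCA2 between 39 and 68 bp. At RAD51D they lay between 90 and 97 bp inside the gene. At RAD17 they lay between 283 and 299 bp and at PMS2 between 370 and 390 bp before the start.

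The E-box was then searched in the promoter windows, 250 bases before to 50 after each gene start. CACGTG reads the same on both strands and is a special case of the general E-box CANNTG. The strict E-box was present in 6 of 45 promoters of the repair genes (13.3%), against 8.88% of the 15841 protein-coding promoters. Among the 8 genes co-bound at the start 4 held it, against 53.5% of all 1100 promoters co-bound at the start. Among the 16 with a reproducible PLAG1-S summit but no reproducible USF2 summit at the start 2 held it (8.81% of all such promoters). Among the 21 without a reproducible PLAG1-S summit at the start 0 did (3.85%). Some genes of these classes had summits there that were not reproducible, such as USF2 at ERCC6 and PLAG1-S at ATM, both in clone 4. CANNTG was found in 27 of the 45 promoters, against 64.5% of all.

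RAD9A stood apart in the number of E-boxes. Its window held 4 copies of CACGTG, whose first bases lay 142, 113, 81 and 62 bp before the start, and the clone 4 PLAG1-S summit lay 0.5 bp from the centre of the second of these. Of all protein-coding promoters 5 held 4 or more copies, and each of these had a co-bound summit within 1 kb of the start. APEX1 held 3 copies, which 20 promoters did, with 75% of these co-bound. BRCA2, LIG3, FANCC and ERCC6 held 1 copy each, as 1256 promoters did, with 38.4% co-bound.

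**Figure D2:**
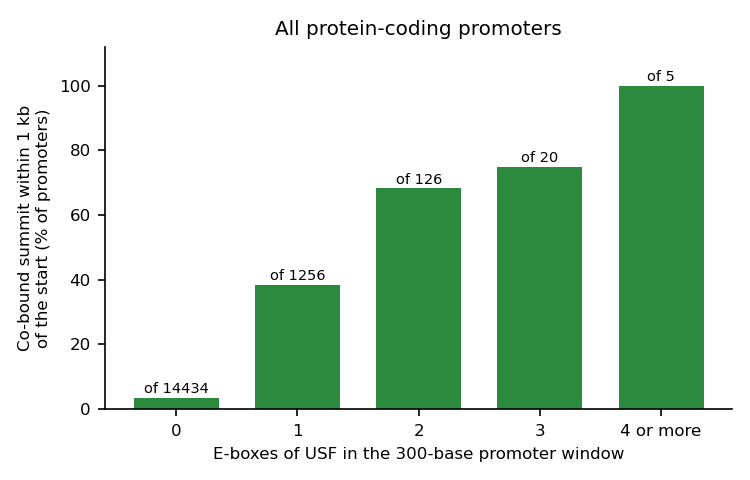
The share of protein-coding promoters with a co-bound summit within 1 kb of the start (vertical axis, percent) is plotted against the number of CACGTG copies in the 300-base promoter window, with the number of promoters above each bar. The share was 3.55% with 0 copies, 38.4% with 1, 68.3% with 2, 75% with 3 and 100% with 4 or more, the class of RAD9A, which holds 5 promoters.

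The single copies differed in occupancy. At LIG3 the E-box lay 0.5 bp from the PLAG1-S and USF2 summits of clone 4, and at BRCA2 6.5 and 1.5 bp from them. At FANCC the E-box lay 1.5 bp from the clone 4 PLAG1-S summit, yet neither clone had a USF2 peak there. At ERCC6 it lay 4.5 bp from the clone 4 USF2 summit, and the clone 5 list held no USF2 peak. The 4 co-bound peaks with a clone 4 PLAG1-S summit inside the gene's own window were those of RAD9A, APEX1, BRCA2 and LIG3. All had CACGTG in that window, against 551 of 655 co-bound peaks with a summit in any RefSeq promoter window. Of the 8 peaks without co-binding whose summits lay in a promoter window, 2 did, against 445 of 2230. The BRCA1 peak is among the 8 through the window of NBR2, a noncoding gene.

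The PLAG1 motif was searched as GGGGC or GAGGC followed after 6 to 8 bases by GGG, on both strands. It may overlap an E-box at its edge. It was found in 17 of the 45 promoters (37.8%), against 39.2% of all protein-coding promoters. Among genes with a reproducible PLAG1-S but no reproducible USF2 summit at the start 4 of 16 held it (51.6% of all such promoters). Among those without a reproducible PLAG1-S summit at the start 9 of 21 did (31.4%). Of the 8 genes co-bound at the start 4 held it, against 50% of all. The RAD9A window held 5 matches, and the MSH6 window none. The median GC content of the windows was 65.7% for the co-bound starts. It was 65.7% for starts with reproducible PLAG1-S but not USF2 and 63.0% for those without reproducible PLAG1-S. For all promoters of these classes it was 68%, 68% and 58.7%.

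The ratio of the clone 4 to the clone 5 fold had a median of 1.13 over all reproducible PLAG1-S peaks. Over the 31 peaks taken above, which were picked by their clone 4 fold and so lean towards that clone, it ranged from 0.915 to 1.82, and ERCC2, ERCC4 and PARP1 had the higher fold in clone 5. The local background behind these peaks ranged from 2.80 to 8.05 fragments with a median of 3.47.

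Some of the peaks stood close to the start of another gene. Of the 31 peaks, 12 had the start of another protein-coding gene within 1 kb of the summit. The same share over all reproducible PLAG1-S peaks was not counted. Among the 12 were 5 of the 9 co-bound ones (RAD17, BRCA2, PMS2, OGG1 and APEX1, the last with OSGEP at 345 bp). The OGG1 and FANCG peaks lay 20705 and 7890 bp from the gene's own start, and thus near the start of the neighbour only. The RAD9A, RAD51D, UNG and LIG3 peaks had no other coding start within that distance. The strongest peaks of homologous recombination outside the co-bound ones were also shared in part, since PALB2 had DCTN5 at 199 bp and XRCC3 had ZFYVE21 at 398 bp. Expression was not measured in these libraries, and which of the genes near a peak is affected was not tested.

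A wider list of 81 other repair and checkpoint genes, also chosen with earlier results of these data known, was counted in the same way. A reproducible PLAG1-S peak was present at 56 of them (69.1%, against 52.0% of all protein-coding genes) and a co-bound peak at 17 (21.0%, against 9.98%), and 11 had no PLAG1-S peak in either clone, against 32.2%. PLAG1-S peaks were reproducible at 11 of 12 checkpoint genes of the wider list, against 5 of 12 in the first list. In homologous recombination the counts were 12 of 16 against 7 of 7, and in mismatch repair 3 of 6 against 2 of 2. The shares of these groups in the first list were thus not kept. The Fanconi group had 5 of 9, nucleotide excision 10 of 15, base excision 10 of 14 and end joining 5 of 9. By group, 4 of 12 checkpoint genes, 4 of 16 in homologous recombination, 4 of 15 in nucleotide excision and 5 of 14 in base excision were co-bound. None of the 9 further Fanconi genes, of the 6 mismatch repair genes or of the 9 end joining genes was. The Fanconi genes thus had 0 of 9 co-bound genes in each list. Against a share of 9.98% of all protein-coding genes, such small groups do not set the Fanconi genes apart. With the clone 4 lists alone, FANCA and FANCE were co-bound. Nucleotide excision had 0 of 8 in the first list and 4 of 15 in the second.

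The strongest of these was GTF2H1, a TFIIH subunit, with PLAG1-S at 46.3 and 38.5 and USF2 at 29.9 and 20.6, 16 bp from its start. In clone 4 PLAG1-S it was followed by TOP3A at 31.6 and by CDK7, another TFIIH subunit, at 31.3. In clone 5 these had 23.3 and 23.5, and NTHL1 at 26.8 and UVSSA at 26.1 ranked above both. In base excision the glycosylase genes NTHL1, SMUG1, TDG and MPG and the flap nuclease gene FEN1 were co-bound, with PLAG1-S from 10.3 to 26.8 in clone 5. RAD50, of the complex that senses broken ends, had PLAG1-S at 23.9 and 21.7 with a summit at its start. CLSPN, TIMELESS, H2AX, RAD51B, MUS81, SWI5 and UVSSA were co-bound as well. The TOP3A peak was nearest to the start of SMCR8, and those of CLSPN, RAD51B, MUS81 and SWI5 were nearest to the starts of C1orf216, ZFYVE26, CFL1 and GOLGA2.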

How the data were processed

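ChIP-seq peak lists of 4 immunoprecipitated libraries were used, with groups and clone numbers from the labels. The authors called peaks with MACS2 against the merged inputs on hg38, and the submitters' processing notes also name FastQC, cutadapt, HISAT2 2.0.4, SAMtools, bedtools and HOMER. The deposited fold is a ratio to the local background at the summit. MACS2's Poisson model gave the deposited −log10 p, and its adjustment the deposited −log10 q. In the deposited files the score is the −log10 q times 10 without decimals. The largest q was 0.0099 in the PLAG1-S lists and 0.0494 in those of USF2, which were thus called less strictly. Depth is known only from the read numbers in the labels.

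Gene bodies came from the RefSeq table (GRCh38.p14, chromosomes 1 to 22, X and Y) and gene starts from the RefSeq promoter sequences. Fragments over a summit were recovered from the fold and −log10 p, accepted within 0.001, for 100% of peaks, and carry exact 95% Poisson intervals. The steps were tested on simulated data. Genes were counted with no test, beside the share of all protein-coding genes. The same clone number marks the same cell clone, which pairs the libraries, and peaks were also taken within each clone and averaged. The named genes are all co-bound genes, the 5 genes without a USF2 peak whose clone 4 PLAG1-S fold was largest, genes without a PLAG1-S peak and co-bound genes of the wider list, of which 1 is not reported here. Other genes were named after their values were seen. The members and lists were chosen with earlier results of these data known. Python 3.11.15, numpy 2.4.6, pandas 2.3.3, scipy 1.17.1 and matplotlib 3.10.9 were used.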

Additional observations from a re-analysis of the deposited data

How the results depend on the processing

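Counts of occupied genes depended mainly on the clone and on the peak threshold. With a −log10 q of at least 10, PLAG1-S was reproducible at 20 genes (33.0% of all protein-coding genes) and at 16 gene starts (21.4%), and base excision held 1 co-bound gene. With a peak of either clone, USF2 was present at 18 genes (27.1%) and 16 were co-bound (22.1%), among them 4 of homologous recombination, 2 Fanconi and 2 nucleotide excision genes. Leaving out 1 clone gave 11 to 16 genes with USF2 (13.6% to 25.3% of all protein-coding genes) and 10 to 15 co-bound (11.3% to 20.5%), with 2 to 4 in homologous recombination, 0 to 2 in the Fanconi group and 0 to 2 in nucleotide excision. The larger counts came from the clone 4 lists, which added ERCC1, ERCC6, FANCA, FANCE, PALB2 and XRCC2. With the clone as a block, averages were 37 genes with PLAG1-S (61.2% of all protein-coding genes), 13.5 with USF2 (19.4%) and 12.5 co-bound (15.9%), with 1 in the Fanconi group and 1 in nucleotide excision, and no other count of co-bound genes or count at the gene start moved by over 1.5 times. A window of 10 kb gave 1 co-bound nucleotide excision gene, ERCC1, and 11 co-bound genes in all (12.5% of all protein-coding genes). A stricter threshold removes peaks by construction, and 1 clone alone adds them, since no overlap between clones is then asked for. Of the recomputed counts of occupied, start-occupied and co-bound genes, 120 stayed within 1.5 times the value reported and 16 did not, and of the counts of PLAG1-S genes by group 67 did and 10 did not. The 5 checkpoint genes with PLAG1-S became 11 with either clone, 10 with clone 4 alone, 8.5 on average over the clones, and 3 with the stricter threshold or the gene body alone. Of the fold enrichments of named genes, 23 moved by more than 1 SD between the clones, each with clone 5 in place of clone 4, where this follows by construction, and 68 did not. OGG1 lost its co-bound peak with a reciprocal overlap of 50%. The overlap of 0 bp, the summit distance and the gene body alone kept all 9 co-bound genes (9.96%, 9.22% and 8.29% of all protein-coding genes). Peaks of few fragments, down to 11 at the summit, limit what a gene without a peak shows.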

Other observations

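Several windows of the repair genes held PLAG1-S peaks that lay at the starts of their neighbours, with values that belong in no count of repair gene starts. The second PLAG1-S peak in the RAD9A window, with a clone 4 fold of 7.84, lay 205 bp from the start of PPP1CA, a phosphatase subunit gene. The second peak of RAD51D, at 7.29, lay 100 bp from the start of RFFL. In the ERCC1 window the peaks at 8.88 and 7.69 lay 15 bp from the start of POLR1G, a subunit of RNA polymerase I, and 466 bp from that of PPP1R13L. In the OGG1 window a peak at 6.23 lay 28 bp from the start of TADA3 and 73 bp from an end of ARPC4. The strongest OGG1 peak, at 12.4, lay 3889 bp from the nearest coding start, that of CAMK1. In FANCE a peak at 6.52 lay 304 bp from an end of MKRN6P, a pseudogene. These peaks were counted for the repair genes because they fell within 3 kb of the gene body.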
